A study of Mus musculus with 12 samples.

Results

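The genes described here are 9 surface and identity markers of macrophages: the growth factor receptor genes Csf1r and Csf2ra, the adhesion receptor genes Adgre1, Itgam and Itgb2, the lipopolysaccharide co-receptor gene Cd14, the lysosomal glycoprotein gene Cd68, and the host defence genes Lyz2 and Mpeg1. They were chosen by function, as the rows of the deposited value table whose only gene symbol is one of these 9 names, and each gene had exactly 1 such transcript cluster. All 9 were bright enough to be tested, among 14611 genes tested in all. The cells were RAW 264.7, a mouse line with monocyte and macrophage traits that grows attached and carries the Abelson leukaemia virus as its transforming agent. They were grown to confluency and transfected for 48 h with 1 of 3 oligonucleotides, and each treatment had 4 arrays labelled as biological replicates, 12 arrays in total. The controls received an irrelevant scramble, the second group received pre-miR-223, which adds miR-223 activity, and the third received anti-miR-223, which binds and blocks it. Every group is the same transformed line, no array comes from untransfected cells, and no cluster has Mir223 as its only symbol, so delivery was not checked here. Whether the replicates were separate cultures is stated only through the word biological; p-values measure the spread between these arrays.

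Macrophages depend on signals from their surface. The receptor encoded by Csf1r binds the growth factors CSF1 and IL-34 and keeps macrophages alive and dividing, and Csf2ra encodes the ligand-binding chain of the GM-CSF receptor. Itgam and Itgb2 encode CD11b and CD18, which pair as the integrin Mac-1, and Adgre1 encodes an adhesion G protein-coupled receptor widely used to identify mouse macrophages. CD14 hands lipopolysaccharide to the TLR4 and MD-2 complex. Cd68 encodes a heavily glycosylated member of the LAMP family of lysosomal membrane proteins, Lyz2 encodes the lysozyme of myeloid cells, and Mpeg1 encodes perforin-2, a pore-forming protein directed at ingested bacteria. Many macrophage genes are driven by the transcription factor PU.1, encoded by Spi1, which recognises purine-rich DNA. MicroRNAs such as miR-223, abundant in myeloid cells, pair through bases 2 to 8, the seed, with sites in messenger RNAs and lower their stability or translation.

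The microRNA that was added or blocked is shown first, because it defines the groups. Capitals mark the seed of the mature sequences listed by RefSeq (GRCm38.p6), at chrX:96242884-96242905 for the 3p arm and chrX:96242842-96242864 for the 5p arm, both on the plus strand; the miR-223-3p arm is the one usually meant by miR-223, and the oligonucleotides' own sequences were not used here.
mmu-miR-223-3p: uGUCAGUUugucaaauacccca
mmu-miR-223-5p: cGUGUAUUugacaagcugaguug

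Stretches upstream of 4 marker genes are shown because the results below turn on these genes: Itgam as a chain of Mac-1 that was tested with its partner Itgb2, Cd68 for the lowest p, Csf2ra for the largest shift in a single array, and Lyz2 as the only marker that was not highest in that array. The table of RefSeq promoters (GRCm38.p6) held windows for these and for Mpeg1 that were used here; each stretch ends just before the annotated start of the gene and reads 5′ to 3′ on the gene's strand. Capitals mark GAGGAA or its reverse complement TTCCTC, a purine-rich form of the site that PU.1 and related ETS factors bind. The shorter letters GGAA or TTCC alone are not marked, and they do occur in the Lyz2 and Csf2ra stretches. The stretches are Itgam at chr7:128062390-128062639 (plus strand), Cd68 at chr11:69666171-69666420, Lyz2 at chr10:117282273-117282522 and Csf2ra at chr19:61228462-61228668 (all minus strand).
Itgam: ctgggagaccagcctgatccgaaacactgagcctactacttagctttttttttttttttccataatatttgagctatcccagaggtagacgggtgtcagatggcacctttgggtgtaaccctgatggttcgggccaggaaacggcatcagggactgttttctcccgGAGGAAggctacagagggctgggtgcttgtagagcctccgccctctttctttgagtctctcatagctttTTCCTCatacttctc
Cd68: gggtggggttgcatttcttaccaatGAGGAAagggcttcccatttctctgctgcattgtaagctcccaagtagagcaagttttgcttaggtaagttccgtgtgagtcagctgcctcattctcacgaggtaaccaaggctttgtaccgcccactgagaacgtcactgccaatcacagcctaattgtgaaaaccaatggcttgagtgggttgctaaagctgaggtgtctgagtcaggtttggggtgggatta
Lyz2: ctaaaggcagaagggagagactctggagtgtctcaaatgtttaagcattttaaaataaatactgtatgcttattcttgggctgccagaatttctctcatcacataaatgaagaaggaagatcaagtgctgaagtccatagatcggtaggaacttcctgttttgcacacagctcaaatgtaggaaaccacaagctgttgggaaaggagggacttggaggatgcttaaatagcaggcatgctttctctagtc
Csf2ra: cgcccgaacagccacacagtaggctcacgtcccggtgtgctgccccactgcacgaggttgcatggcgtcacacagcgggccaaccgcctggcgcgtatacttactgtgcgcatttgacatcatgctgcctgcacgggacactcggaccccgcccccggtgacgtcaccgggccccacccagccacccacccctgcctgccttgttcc

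The Itgam stretch held 2 matches, which began 84 and 15 bases before the annotated start, and the Cd68 stretch held 1, which began 225 bases before it. These letters did not occur in the upstream stretches of Lyz2, Csf2ra or Mpeg1. The full windows of 300 bases run past the annotated start. In them Csf2ra held 2 matches, Itgam 3, Cd68 2, and Lyz2 and Mpeg1 0, where 28.3% of all windows held a match. Of all 32851 RefSeq promoter windows, 23.3% held a match on either strand in their first 250 bases, and 19.3% in their first 207, the length of the Csf2ra stretch. A match of 6 letters is a description of the sequence and not a binding site.

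As a check of the cell label, all 9 markers lay above the level required for testing, log2 2.01, which 14611 of 22180 genes with a cluster of their own passed. Their 12-array means ran from 6.05 for Csf2ra to 11.19 for Lyz2, values that depend on each cluster's probes and are not compared between genes. Of the markers of other cells, 4 of 7 for fibroblasts, 3 of 5 for epithelium, 3 of 5 measured for T cells, 0 of 4 measured for B cells, 2 of 7 for neutrophils and 3 of 4 measured for dendritic cells also passed that level, so passing it does not by itself mark a cell type. The highest mean in each of these lists was 2.53 for fibroblasts, 3.52 for epithelium and 2.15 for T cells. It was 1.87 for B cells, 2.11 for neutrophils and 2.60 for dendritic cells. In whole cultures, fewer cells of a type and less RNA per cell cannot be told apart.

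One array stood apart before any group was compared. Replicate 4 of anti-miR-223 had a median correlation with the other arrays of 0.967 across genes, which are not independent replicates, against 0.988 to 0.992 for the other 11. In it 629 tested genes differed by more than 2-fold from their mean, and no other array had more than 37 such genes. The marker differences and their counts that involve anti-miR-223 are given with and without it. So are the inhibitor counts of the integrin and lipopolysaccharide recognition lists. For the other role lists no inhibitor counts are given.

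**Figure D1:**
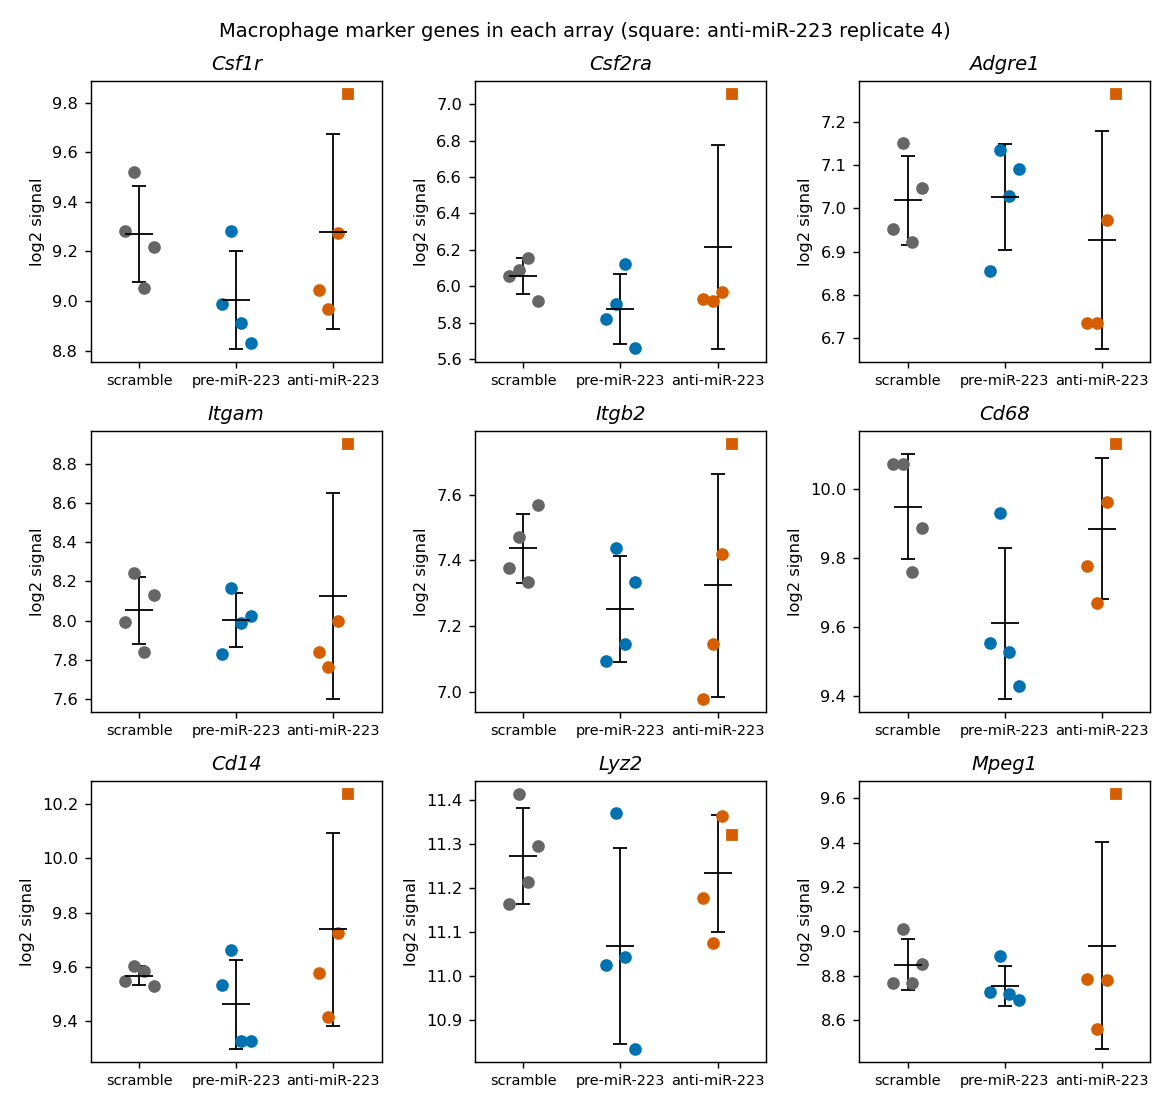
Log2 signal of the 9 marker genes in each array, grouped by treatment, with 1 point per array and the group mean and SD (n = 4) as bars; each panel has its own axis range. The square is anti-miR-223 replicate 4, the highest of the 12 arrays for every marker but Lyz2.

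The receptor genes came first in the order of roles. For Csf1r, the scramble arrays read 9.28, 9.52, 9.05 and 9.22 on the log2 scale, the pre-miR-223 arrays 8.99, 9.28, 8.91 and 8.83, and the anti-miR-223 arrays 9.04, 8.97, 9.28 and 9.84. All 3 groups overlapped: 3 of 4 mimic arrays lay below every scramble array, while pre-miR-223 replicate 2 lay among the controls. The means were 9.27 ± 0.19 (SD, n = 4) with scramble, 9.004 ± 0.20 with pre-miR-223 and 9.28 ± 0.39 with anti-miR-223. The difference between pre-miR-223 and scramble was -0.27 (95% CI -0.64 to 0.11) and did not pass (limma, adjusted p = 0.921).

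For Csf2ra the arrays read 6.06, 6.09, 6.16 and 5.92 with scramble, 5.82, 5.90, 6.12 and 5.66 with pre-miR-223, and 5.93, 5.92, 5.97 and 7.06 with anti-miR-223. Its means were 6.06 ± 0.10, 5.88 ± 0.19 and 6.22 ± 0.56. Without replicate 4 the anti-miR-223 mean was 5.94 ± 0.03 (n = 3), so that 1 array set both the mean and the spread of its group. The difference from scramble was -0.18 (-0.64 to 0.28) with the mimic and 0.16 (-0.29 to 0.62) with the inhibitor.

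Among the adhesion genes, Adgre1 was at 6.95, 7.15, 6.92 and 7.05 with scramble, 6.85, 7.13, 7.03 and 7.09 with pre-miR-223, and 6.74, 6.73, 6.97 and 7.27 with anti-miR-223. It was the only marker with a mean difference above 0 for the mimic, 0.0089 (95% CI -0.26 to 0.28), and the sign turned to -0.014 when each array was centred on its median. Replicates 1 and 2 of the inhibitor were the lowest 2 of all 12 arrays, and replicate 4 of the same group was the highest. Its means were 7.02 ± 0.10 (SD, n = 4) with scramble, 7.03 ± 0.12 with pre-miR-223 and 6.93 ± 0.25 with anti-miR-223.

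Itgam, the alpha chain of Mac-1, read 7.99, 8.24, 7.84 and 8.13 with scramble, 7.83, 8.17, 7.99 and 8.02 with pre-miR-223, and 7.84, 7.76, 7.998 and 8.90 with anti-miR-223. Scramble and mimic arrays covered almost the same range, with means of 8.05 ± 0.17 and 8.001 ± 0.14 and a difference of -0.05 (-0.49 to 0.39). That difference became 0.016 after a repeated quantile normalisation and 0.067 after cyclic loess, so it has no settled direction.

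Itgb2, the beta chain that Mac-1 shares with the other leukocyte integrins, read 7.38, 7.47, 7.33 and 7.57 with scramble, 7.09, 7.44, 7.14 and 7.33 with pre-miR-223, and 6.98, 7.15, 7.42 and 7.75 with anti-miR-223. Its inhibitor arrays spanned the whole range seen in the series, from the lowest value to the highest. The means were 7.44 ± 0.10 with scramble, 7.25 ± 0.16 with pre-miR-223 and 7.32 ± 0.34 with anti-miR-223. The mimic differed from scramble by -0.19 (-0.51 to 0.14) and the inhibitor by -0.11 (-0.44 to 0.21).

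Cd14 was the steadiest marker in the controls, with 9.55, 9.61, 9.59 and 9.53 in the scramble arrays, an SD of 0.03. Values of 9.53, 9.66, 9.33 and 9.33 were measured with pre-miR-223, and of 9.58, 9.41, 9.72 and 10.24 with anti-miR-223. The mimic arrays fell into the control range or just above it for replicates 1 and 2 and below it for replicates 3 and 4. The mean with pre-miR-223 was 9.46 ± 0.16 and with anti-miR-223 9.74 ± 0.36, differences from scramble of -0.11 (95% CI -0.43 to 0.22) and 0.17 (-0.15 to 0.50).

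Cd68 was the marker with the smallest p in any comparison. Its arrays read 10.07, 10.07, 9.76 and 9.89 with scramble, 9.55, 9.93, 9.53 and 9.43 with pre-miR-223, and 9.78, 9.67, 9.96 and 10.13 with anti-miR-223. As for Csf1r, 3 mimic arrays lay below every scramble array and replicate 2 lay within the scramble range. The means were 9.95 ± 0.15 (SD, n = 4) with scramble, 9.61 ± 0.22 with the mimic and 9.89 ± 0.20 with the inhibitor. The mimic's difference of -0.34 (-0.63 to -0.05) had an unadjusted p of 0.0258 and an adjusted p of 0.921 by limma, so it did not pass. It lay between -0.44 and -0.28 over the fits that left out single arrays, the former without pre-miR-223 replicate 2.

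Lyz2 read 11.16, 11.41, 11.21 and 11.30 with scramble, 11.02, 11.37, 11.04 and 10.83 with pre-miR-223, and 11.18, 11.07, 11.36 and 11.32 with anti-miR-223. The same 3 mimic arrays lay below all the scramble arrays. The difference was -0.20 (-0.47 to 0.06) with the mimic and -0.04 (-0.30 to 0.22) with the inhibitor, from means of 11.27 ± 0.11 with scramble, 11.07 ± 0.22 with pre-miR-223 and 11.23 ± 0.13 with anti-miR-223. Lyz2 has a close paralog, Lyz1, and how far their probes read each other's transcripts is not known here. Without pre-miR-223 replicate 4 the mimic's difference for Lyz2 was -0.13, and without replicate 2 it was -0.31.

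Mpeg1 completed the set with 8.77, 9.01, 8.77 and 8.86 in scramble arrays, 8.73, 8.89, 8.72 and 8.69 in pre-miR-223 arrays, and 8.78, 8.56, 8.78 and 9.62 in anti-miR-223 arrays. Mimic replicates 1, 3 and 4 lay below every scramble array here too. The mimic mean of Mpeg1 was 8.75 ± 0.09 against 8.85 ± 0.11 with scramble, a difference of -0.10 (95% CI -0.48 to 0.29). With the inhibitor the mean was 8.94 ± 0.47, and 8.71 ± 0.13 (n = 3) without replicate 4.

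The first comparison, pre-miR-223 against scramble, asked whether added miR-223 goes with other marker levels. None of the 9 markers passed at an adjusted p under 0.05, and neither did any of the 14611 genes (0%, lowest adjusted p = 0.921; 711 genes had an unadjusted p under 0.05, with an ordinary linear model, 0 calls and 706 genes). Differences below 0 were measured for 8 of 9 markers, against 65.2% of all tested genes, with a median of -0.18 against -0.05. With single arrays left out the count ran from 7 to 9 of 9, beside 61.1% to 66.1% of all genes. After cyclic loess it was 5 of 9 (52.1% of all genes), with a median of -0.07 against -0.01. That scaling moved every mimic difference towards or past 0 except that of Adgre1, which was 0.12: Cd68 was then -0.22, Csf1r -0.15, Lyz2 -0.087, Csf2ra -0.076 and Itgb2 -0.069. At an unadjusted p under 0.05, Cd68 was lower, 1 of 9 markers against 3.85% of all genes. It missed that level without scramble replicate 1 or 2 or without pre-miR-223 replicate 1, 3 or 4, and also after repeated quantile normalisation (unadjusted p = 0.0528, limma) and cyclic loess (unadjusted p = 0.0621, limma). With array weights Itgb2, Lyz2, Cd68 and Csf1r, 4 of 9, reached it, and so did 10.1% of all genes in the same direction. No marker separated the groups without overlap, against 2.98% of genes. The 95% intervals lay within 2-fold in either direction for 9 of 9 markers (98.5% of all genes) and within 1.5-fold for 6 of 9 (82.8%). Those of Csf1r, Csf2ra and Cd68 reached past a 1.5-fold lower level. The spread behind these intervals is shared with the anti-miR-223 arrays. Without anti-miR-223 replicate 4 the Csf1r interval was -0.53 to 0.001 and that of Csf2ra -0.40 to 0.05, both within 1.5-fold. That of Cd68 was -0.60 to -0.08 (unadjusted p = 0.0142, adjusted p = 0.521, limma). In that fit 7.64% of all genes were lower at an unadjusted p under 0.05.

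**Figure D2:**
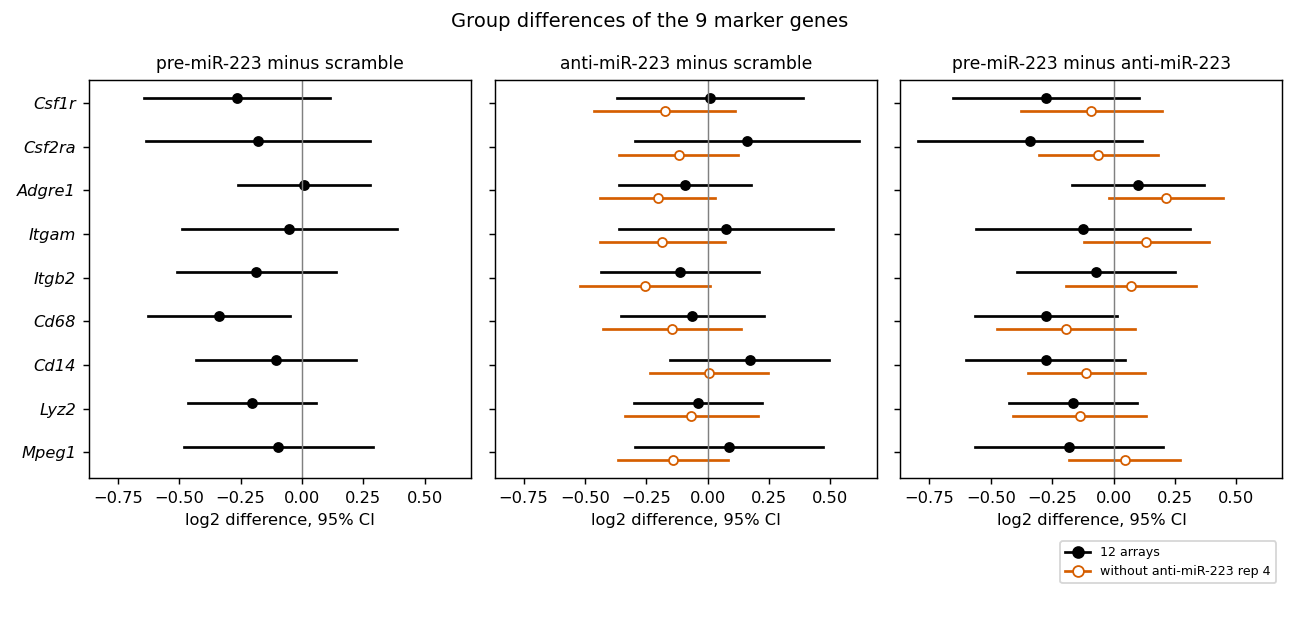
Log2 differences of the 9 markers (points) with 95% confidence intervals (lines) for the 3 comparisons. Black shows all 12 arrays, and open orange the fit without anti-miR-223 replicate 4. Orange is drawn only in the comparisons that involve anti-miR-223. Only the Cd68 interval for pre-miR-223 minus scramble, -0.63 to -0.05, does not include 0, and the orange points lie lower in the middle panel for every marker.

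The second comparison, anti-miR-223 against scramble, asked the same of a block of miR-223. With all arrays, 4 of 9 markers had differences below 0 (52.5% of all genes) and the median was 0.01 against -0.01. Without replicate 4 the count was 8 of 9 (63.6% of all genes) and the median -0.15 against -0.05. Csf1r moved from 0.01 (95% CI -0.37 to 0.39) to -0.17 (-0.46 to 0.11), Csf2ra from 0.16 to -0.12 (-0.36 to 0.12), Itgam from 0.07 (-0.36 to 0.51) to -0.18 (-0.44 to 0.07), and Mpeg1 from 0.09 (-0.30 to 0.47) to -0.14 (-0.37 to 0.08). The sign of Csf2ra, Itgam and Mpeg1 turned when this array was left out and not when any other single array was; that of Csf1r also turned without scramble replicate 3 or 4.

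Markers that were below scramble with all arrays lay further below without replicate 4. Itgb2 was at -0.26 (95% CI -0.52 to 0.01), Adgre1 at -0.20 (-0.44 to 0.03), Cd68 at -0.15 (-0.43 to 0.14) and Lyz2 at -0.07 (-0.34 to 0.20), where all arrays had given -0.11, -0.09, -0.06 and -0.04. Cd14, above scramble with all arrays at 0.17, was at 0.0051 (-0.23 to 0.24) without replicate 4. No marker passed in either fit (0% of genes called in both; lowest adjusted p of any gene 0.988 with all arrays and 0.194 without replicate 4, limma). An unadjusted p under 0.05 was reached by 294 genes with all arrays and 978 without replicate 4, no marker among them, and an ordinary linear model on all arrays gave 0 calls and 368 such genes. No marker separated the groups, against 1.55% of genes with all arrays and 6.55% without replicate 4. The intervals lay within 1.5-fold for 8 of 9 (88.1% of all genes), Csf2ra being the exception, and for 9 of 9 without replicate 4 (89.1%). Within 2-fold they lay for 9 of 9 with all arrays (98.9%). The count of markers below scramble, 4 of 9, was 2 without anti-miR-223 replicate 2 (47.2% of all genes) and 8 with array weights on all arrays (60% of all genes, marker median -0.07).

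Direct comparison of the mimic with the inhibitor gave differences below 0 for 8 of 9 markers with all arrays, against 62.8% of all genes, with a median of -0.18 against -0.04. Without anti-miR-223 replicate 4 this count was 5 of 9 (52.2% of all genes) and the median -0.06 against -0.01. Above 0 were the adhesion genes, Adgre1 at 0.21 (95% CI -0.02 to 0.45), Itgam at 0.13 (-0.12 to 0.39) and Itgb2 at 0.07 (-0.19 to 0.34), and Mpeg1 at 0.05. Cd68 at -0.19 (-0.47 to 0.09), Lyz2 at -0.14 (-0.41 to 0.13), Cd14 at -0.11, Csf1r at -0.09 and Csf2ra at -0.06 were below 0. The intervals of all 9 included 0, and the division into roles was noticed after the values were seen and was not tested. With all arrays, limma called 0% of genes here (lowest adjusted p = 0.946, 528 genes at an unadjusted p under 0.05; ordinary linear model 0 calls and 530), and 0% without replicate 4. No marker separated the groups, where 1.67% of genes did with all arrays and 4.84% without replicate 4. The intervals lay within 1.5-fold for 6 of 9 markers (82.9% of genes), or 9 of 9 without replicate 4 (91.8%), and within 2-fold for 9 of 9 with all arrays (97.9%). Both comparisons with scramble share the control arrays, so their values stand side by side here and were not correlated.

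The distance of anti-miR-223 replicate 4 from the other arrays differed among the markers. It was above the mean of the other 11 arrays for 9 of 9 markers (59.3% of all genes) and the highest of all 12 arrays for 8 of 9 (34.1% of all genes). Csf2ra stood 1.099 above that mean on the log2 scale, Itgam 0.92, Mpeg1 0.84, Csf1r 0.71 and Cd14 0.71. Smaller gaps were measured for Itgb2 at 0.45, Cd68 at 0.35, Adgre1 at 0.30 and Lyz2 at 0.14, the last below the SD of Lyz2 among the other arrays, 0.18. Of all tested genes, 3.22% stood farther above the mean of the other 11 arrays than Csf2ra, and 44.5% farther above than Lyz2. Genes that lay below that mean in this array are not counted in these shares, however far. The summed linear signal of the 9 markers was 7570 in this array, 5560 to 6530 with scramble and 4630 to 6190 with pre-miR-223. Over the same array the summed signal of the fibroblast list was 26.6 (26.9 to 31.8 with scramble), of the epithelial list 24.0 (26.4 to 28.9), of the T cell list 18.2 (18.1 to 19.9), of the B cell list 13.4 (13.6 to 14.1), of the neutrophil list 22.8 (24.5 to 25.3) and of the dendritic cell list 20 (19.4 to 23.8). None of these sums exceeded the scramble range. Each of these other lists includes genes under the level required for testing, so their sums cannot show whether other cells were present.

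**Figure D3:**
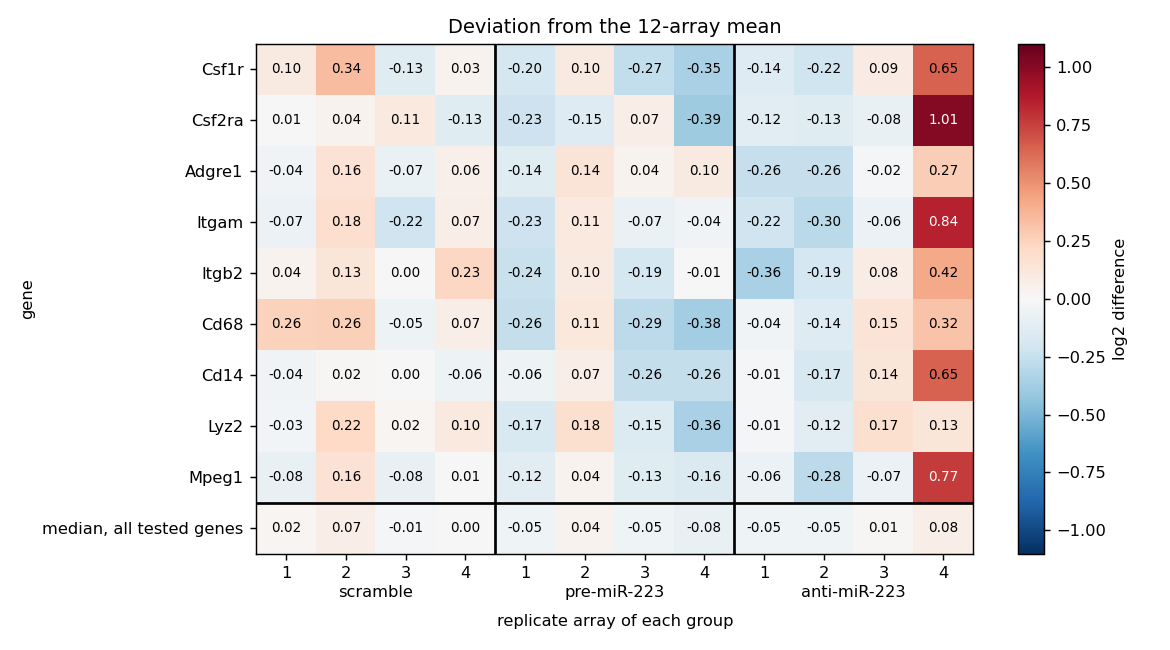
Deviation of each marker from its 12-array mean (log2 difference, colour and printed value) in every array, with the median of all 14611 tested genes in the bottom row; columns are replicate arrays 1 to 4 of each group. Anti-miR-223 replicate 4 is above the mean in all 9 rows, by up to 1.01 for Csf2ra, and pre-miR-223 replicate 2 differs from the other mimic arrays in most rows.

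The markers also followed the arrays as a set. All 9 lay above their 12-array mean in scramble replicate 2, where 65.4% of tested genes did, and 8 of 9 in pre-miR-223 replicate 2 (60.4%). No marker lay above it in pre-miR-223 replicate 1 (37.7% of tested genes), anti-miR-223 replicate 1 (39.1%) or anti-miR-223 replicate 2 (39.2%). That mean includes anti-miR-223 replicate 4, the highest array for 8 of 9 markers. Against the mean of the other 11 arrays, Cd14 lay above in pre-miR-223 replicate 1 (9.533 against 9.531). In anti-miR-223 replicate 1, Cd14 (9.579) and Mpeg1 (8.784 against 8.777) did so. The remaining markers stayed below it in these arrays. The median deviation of the markers was -0.26 in pre-miR-223 replicate 4 and 0.10 in pre-miR-223 replicate 2, both larger than the medians of all tested genes, -0.08 and 0.04. The part that array-wide shifts have in the marker differences was not tested.

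Correlation between markers across arrays is given as a description, and the part that array-wide shifts have in it was not tested. Over 12 arrays the 36 pairs had Pearson r between 0.37 and 0.96 with a median of 0.73. With each array centred on its median they ran from 0.50 to 0.97 with a median of 0.78. On the deposited values without anti-miR-223 replicate 4 they ran from 0.03 to 0.94 with a median of 0.58, and 36 of 36 stayed above 0. Csf1r with Cd68 had 0.94 over these 11 arrays, Adgre1 with Itgam 0.91, Csf1r with Lyz2 0.89 and Cd68 with Lyz2 0.87. Csf2ra had little in common with the adhesion genes once that array was left out: r was 0.03 with Adgre1, 0.06 with Itgam and 0.11 with Itgb2. The lowest of the 36 pairs over 12 arrays, on the deposited values, was Adgre1 with Lyz2.

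Complexes fixed by known biology were tested as 3 pairs. The Mac-1 chains Itgam and Itgb2 ran together, with r = 0.826 (permutation p = 0.00031, adjusted 0.00093 over the 3 pairs) and rho = 0.867 (permutation p = 0.00046, adjusted 0.00138, n = 12 arrays). The 2 arrays farthest from the Itgam median were replicate 4 of the inhibitor and replicate 2 of the scramble, and without them r was 0.767 (permutation p = 0.0114). As deviations from group means r was 0.881 (permutation p = 0.0002). The closeness is not particular to this pair: over 12 arrays Itgam had a higher r with Mpeg1 (0.96), Csf1r (0.86) and Adgre1 (0.84), and the permutations treat arrays as interchangeable.

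Cd14 and Tlr4, partners in lipopolysaccharide recognition, had r = 0.855 (permutation p = 0.0113, adjusted 0.0170) but rho = 0.545 (permutation p = 0.0698, adjusted 0.105). The relation rests on 1 array: r was 0.368 without anti-miR-223 replicate 4 (permutation p = 0.265) and 0.426 without the 2 arrays farthest from the Cd14 median. For the GM-CSF receptor chains Csf2ra and Csf2rb, r was 0.296 (permutation p = 0.327) and rho 0.196 (permutation p = 0.544), and r was -0.06 without the 2 farthest arrays. Csf2rb, at a mean of 2.94, was close to the lowest level tested, and its probes may also read its paralog Csf2rb2.

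**Figure D4:**
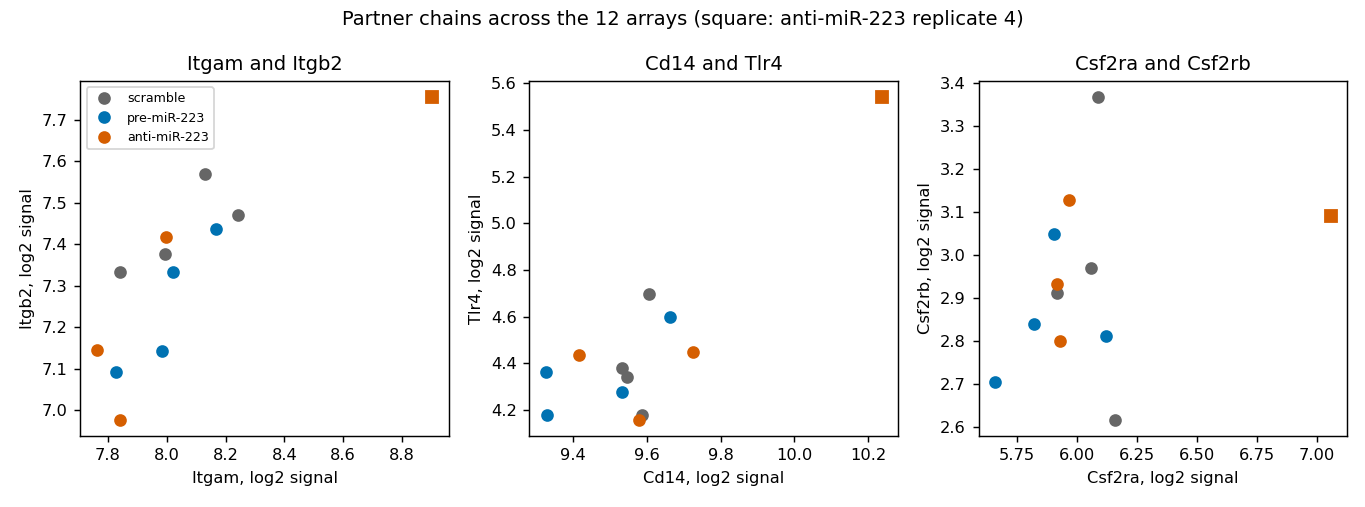
Log2 signals of 3 pairs of partner genes across the 12 arrays, 1 point per array, coloured by treatment; the square is anti-miR-223 replicate 4. Itgam and Itgb2 follow each other with and without the square (r = 0.826 and 0.777), while Cd14 and Tlr4 do so mainly through it (0.855 and 0.368).

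For each marker the tested gene with the most similar course over the 12 arrays was found by Pearson r on the deposited values. Csf1r was closest to Cxcl16, which encodes a membrane-bound chemokine, with r = 0.993 over 12 arrays and 0.992 without anti-miR-223 replicate 4. Adgre1 was closest to Csf2rb2, the beta chain of the IL-3 receptor (0.962 and 0.951), and Cd68 to Rpl29, a ribosomal protein gene (0.978 and 0.982). The others were Csf2ra with Manea, an endomannosidase gene (0.978 and 0.867), Itgam with Pgap1, which acts on GPI anchors (0.980 and 0.917), Itgb2 with Dennd1b (0.963 and 0.944), Cd14 with Zcchc8 (0.973 and 0.896), Lyz2 with Sh3gl2 (0.947 and 0.944) and Mpeg1 with Nqo2, a quinone reductase gene (0.986 and 0.945). Without anti-miR-223 replicate 4 a different gene was closest for 7 of 9 markers, all but Csf1r and Adgre1. For Csf2ra it was Lynx1, with r = 0.928 over 11 arrays and -0.18 over 12. High likeness was common: 16.4% of all tested genes had r over 0.8 with Csf1r, 15.4% with Mpeg1, 14.0% with Itgam and 3.05% with Adgre1.

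Genes that work beside the markers were taken from 7 lists by role, with 63 genes of which 48 were tested; none passed the test in any comparison. Among growth factor receptors and their ligands, 0 of 8 tested genes passed and 6 lay below scramble with the mimic (median -0.11, from -0.34 to 0.16), where 65.2% of all genes did. The ligand genes Csf1 and Il34 had means of 1.78 and 1.84, under the level required. Csf2rb2 was at 5.21 ± 0.26 (SD, n = 4) with scramble, 5.09 ± 0.26 with the mimic and 4.98 ± 0.54 with the inhibitor. Its values of 4.55, 4.53, 5.21 and 5.63 with anti-miR-223 repeated the order seen for Adgre1, with replicates 1 and 2 below every other array. Its difference from scramble with the inhibitor was -0.23 (-0.72 to 0.26) with all arrays and -0.44 (-0.84 to -0.05) without replicate 4 (unadjusted p = 0.0292, adjusted p = 0.712, limma).

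Integrins and their adaptors comprised 14 tested genes, 10 of them below scramble with the mimic (median -0.19), near the 65.2% of all genes. With the inhibitor 11 of 14 lay below scramble (median -0.07; 52.5% of all genes), and 13 of 14 without replicate 4 (median -0.17; 63.6%). Itgb1, the beta chain of many matrix receptors, differed by 0.09 (95% CI -0.15 to 0.32) with the mimic, Itgal, the alpha chain of LFA-1, by 0.00 (-0.26 to 0.27) and Itgax, which encodes CD11c, by -0.22 (-0.57 to 0.14), the last with a mean of 3.18. Itgb5 at -0.23 and Itgb7 at -0.25 had unadjusted p under 0.05 and are named for that.

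Of the lipopolysaccharide recognition list, 8 of 8 tested genes lay below scramble with the mimic (median -0.18, from -0.48 to -0.03), where 65.2% of all genes did. With the inhibitor the count was 3 of 8 (median 0.19; 52.5% of all genes), and without replicate 4 it was 7 of 8 (median -0.05; 63.6%). Ly96, which encodes MD-2, read 6.87, 6.45, 6.34 and 6.24 with scramble, 5.74, 6.71, 5.65 and 6.06 with pre-miR-223, and 6.51, 5.92, 6.87 and 7.55 with anti-miR-223. It differed by -0.67 (95% CI -1.32 to -0.03) between mimic and inhibitor, or -0.39 (-0.92 to 0.13) without anti-miR-223 replicate 4. Tlr4 differed from scramble by -0.05 (-0.55 to 0.46) with the mimic and by 0.25 (-0.26 to 0.75) with the inhibitor, the latter -0.05 without that array. Ly86, which encodes MD-1, at -0.48 (-0.91 to -0.04) with the mimic, and Ticam2, an adaptor of TLR4, at -0.53 (-0.99 to -0.07) between mimic and inhibitor (-0.30 without replicate 4), also had unadjusted p under 0.05 without passing the test.

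Relatives of the lysosomal and defence markers did not pass the test in any comparison either. Lamp1 and Lamp2, major proteins of the lysosomal membrane, differed from scramble by -0.11 (95% CI -0.32 to 0.10) and 0.03 (-0.24 to 0.31) with the mimic, and 3 of 5 tested genes of their list lay below 0 (median -0.11). Lyz1, the paralog of Lyz2, differed by -0.24 (-0.57 to 0.08) with the mimic and -0.12 (-0.45 to 0.20) with the inhibitor, or -0.23 (-0.53 to 0.07) without replicate 4. Its list of lysozymes and pore-forming proteins had 2 of 4 tested genes below 0 with the mimic. Adhesion G protein-coupled receptors had 2 of 4 tested genes below 0 with the mimic, and Adgre5 had no cluster of its own symbol alone. Of all genes, 65.2% lay below scramble with the mimic.

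Spi1, which encodes PU.1, had the lowest mimic difference of the 5 tested lineage transcription factors, -0.31 (95% CI -0.68 to 0.05), with adjusted p = 0.921 by limma. Its arrays read 8.18, 8.40, 7.97 and 8.001 with scramble, 7.89, 8.15, 7.61 and 7.65 with pre-miR-223, and 7.97, 7.87, 8.28 and 8.59 with anti-miR-223. The pattern was that of Cd68 and Csf1r, with 3 mimic arrays below all the controls and replicate 2 among them. With the inhibitor Spi1 differed by 0.04 (-0.33 to 0.40), or -0.10 (-0.42 to 0.22) without replicate 4. Cebpa, another myeloid transcription factor gene, differed by 0.09 (-0.34 to 0.52) with the mimic. Unlike the markers, it was lowest in anti-miR-223 replicate 4, at 4.96. Runx1 had an unadjusted p under 0.05 between mimic and inhibitor, with a difference of -0.30 (-0.55 to -0.06), or -0.19 (-0.40 to 0.016) without replicate 4, and did not pass either.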

How the data were processed

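The authors deposited 1 table of normalised log2 signals for 41345 transcript clusters on 12 arrays. Per the submitters' processing notes the tools were RMA, Partek and Affymetrix Expression Console; their roles and versions, and the genome build, are not given in the sources used here. No source names the logarithm's base, and 2 was assumed. A platform table paired 23521 clusters with a single symbol. Each gene was represented by its brightest such cluster, and genes with a mean over log2 2.01 (percentile 40 of the clusters) were tested, 14611 in all. The 3 groups were fitted together with limma (version 3.58.1, R 4.3.3, lmFit and eBayes, no covariates), 2-sided, with Benjamini-Hochberg adjustment over all genes and a threshold of 0.05. Pair correlations used 100000 permutations. Arrays have no read depth; the number of arrays sets the precision. The deposited arrays had medians over all clusters of 2.21 to 2.31, and a change in total RNA cannot be seen in normalised values. The fit was tested on simulated data whose noise was independent between genes and arrays, without array-wide shifts or an outlying array. That test does not measure how well changes in the real arrays would be called. No arrays held identical values. Named genes are the 9 markers, partners listed by role, the closest gene of each marker, and genes named for an unadjusted p under 0.05, the last chosen after their values were seen. The members and lists were chosen with earlier results of these data known. Alternatives covered scaling, level filter, cluster choice, variance model, array weights, the groups fitted, pairing, and each array left out.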

Additional observations from a re-analysis of the deposited data

Results flagged for a closer look

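Csf2ra in anti-miR-223 replicate 4 was at 7.06 on the log2 scale, while the other 3 arrays of its group lay between 5.92 and 5.97. The gap took up 0.957 of the group's range, above the critical value of Dixon's test for 4 samples. It was 1 of 27 marker and group combinations examined, and chance gives about 1 in 20.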

How the results depend on the processing

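Over 23 alternatives in each comparison, the 27 marker differences gave 621 values. Of these, 297 equal the reported difference (within 1e-05), since filters, variance models, the balanced block or arrays of the third group do not enter it. Of the 324 that moved, 291 kept their sign and 33 did not; no marker passed under any (lowest adjusted p = 0.273), and 0 genes were called under each. Centring arrays on their medians gave -0.014 for Adgre1 (mimic against scramble) and -0.001005 for Csf1r (inhibitor against scramble). Repeated quantile normalisation gave Itgam 0.016 for the mimic. Cyclic loess gave Cd14 0.011, Mpeg1 0.022 and Itgam 0.067 for the mimic, Lyz2 0.015 for the inhibitor and Itgb2 0.0094 for mimic against inhibitor. Array weights gave Adgre1 -0.033 for the mimic, Csf1r -0.082, Mpeg1 -0.074, Csf2ra -0.033 and Itgam -0.12 for the inhibitor, and Itgam 0.018 for mimic against inhibitor. With single arrays left out, the mimic's difference ranged from -0.027 to 0.066 for Adgre1 and -0.12 to 0.013 for Itgam. The inhibitor's ranged from -0.17 to 0.12 for Csf1r, -0.12 to 0.26 for Csf2ra, -0.18 to 0.20 for Itgam, -0.26 to 0.0029 for Itgb2, -0.15 to 0.0086 for Cd68, -0.082 to 0.015 for Lyz2 and -0.14 to 0.21 for Mpeg1. Mimic against inhibitor ranged from -0.25 to 0.13 for Itgam, -0.19 to 0.071 for Itgb2 and -0.31 to 0.046 for Mpeg1. The correlation of Cd14 with Tlr4 was 0.368 without anti-miR-223 replicate 4. The cause of these changes was not tested.

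Arrays with the same replicate number did not deviate together throughout: 4 of 12 correlations of their deviations from the group means exceeded 0.1 (range -0.50 to 0.39). The highest was that of replicate 2 of scramble and pre-miR-223. The anti-miR-223 means used here include the outlying replicate 4, so a pairing by replicate number cannot be decided from these values. With the replicate number as a block, 0 genes were called in each comparison, and the marker differences were those of the fit without it, for example -0.34 for Cd68 (mimic against scramble).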
